A study of Mus musculus with 6 samples.

Results

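The Th1 genes examined here were Tbx21, Ifng, Il18r1, Il18rap, Il12rb1, Il12rb2, Cxcr3, Eomes, Ccl5 and Hopx, followed through every open-chromatin peak that the deposited annotation assigned to their symbols. Of the 10 genes, 9 had at least 1 peak, and together they held 79 of the 148063 peaks with a symbol and of the 282898 peaks listed in all. No peak carried the symbol Ccl5. Accessibility was measured with ATAC-seq, a method that uses a transposase to tag open DNA for sequencing. There were 6 libraries: Stat6 knockout (KO) and Stat6 wild-type (WT) cells of the sorted populations Tfh4, Tfh214 and Tfh21, with 1 library for each genotype and population. All cells were T follicular helper cells of untreated C57BL/6 mice. For each genotype 10 mice were used, and 50000 cells entered each library. How each population was gated, and the age and tissue of the mice, were not given in the sources used here.

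Th1 cells make interferon-gamma and defend against intracellular microbes. In them interleukin-12, acting through its receptor and STAT4, and the transcription factor T-bet, encoded by Tbx21, open and activate Ifng, and interleukin-18 adds to its production. STAT6 carries the interleukin-4 signal that favours the Th2 program, in which Th1 genes are held down. Follicular helper cells, which help B cells in germinal centres, can express some T-bet and interferon-gamma beside interleukin-21 or interleukin-4.

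The promoters of the genes on which the results turn are shown first, because the start-site peaks and the remaining peaks of Tbx21 differed in their pattern. RefSeq promoters (build GRCm38.p6) were matched for 8 of the 10 genes, in 11 windows of the 250 bases before an annotated start. The peaks are in another build, mm9, so no peak was placed on these letters. Capitals mark matches, on either strand, to the interferon-gamma activated site TTCNNNGAA or to the STAT6-type site, in which TTC and GAA stand 4 bases apart. The T-box site GGTGTGA was also searched and had no match in the 11 windows.
Tbx21, chr11:97115332-97115581, minus strand: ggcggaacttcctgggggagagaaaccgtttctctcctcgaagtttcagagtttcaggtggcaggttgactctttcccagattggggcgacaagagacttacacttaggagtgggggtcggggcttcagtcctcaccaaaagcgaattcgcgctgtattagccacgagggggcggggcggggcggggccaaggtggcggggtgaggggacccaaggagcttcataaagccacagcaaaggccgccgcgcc
Ifng, chr10:118440796-118441045, plus strand: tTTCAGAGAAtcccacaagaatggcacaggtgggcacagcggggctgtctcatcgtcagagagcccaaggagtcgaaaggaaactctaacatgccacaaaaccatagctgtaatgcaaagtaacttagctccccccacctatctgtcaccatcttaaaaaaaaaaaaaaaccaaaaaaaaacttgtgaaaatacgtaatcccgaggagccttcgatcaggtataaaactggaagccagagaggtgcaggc
Il18r1, chr1:40465302-40465551, plus strand: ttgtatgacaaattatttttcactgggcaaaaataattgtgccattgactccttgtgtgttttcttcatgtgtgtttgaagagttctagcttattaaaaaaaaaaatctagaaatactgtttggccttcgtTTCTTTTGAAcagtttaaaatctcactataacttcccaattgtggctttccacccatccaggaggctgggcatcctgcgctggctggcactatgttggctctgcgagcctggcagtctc
Il18r1, chr1:40465756-40466005, plus strand: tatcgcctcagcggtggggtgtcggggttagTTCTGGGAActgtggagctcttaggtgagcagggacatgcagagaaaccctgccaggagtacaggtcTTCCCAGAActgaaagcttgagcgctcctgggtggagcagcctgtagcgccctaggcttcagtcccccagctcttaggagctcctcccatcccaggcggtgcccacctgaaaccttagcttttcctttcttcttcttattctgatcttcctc

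The Tbx21 window held no match to any of the 3 motifs. The Ifng window held 1 interferon-gamma activated site, 249 bases before the start. For Il18r1, the earlier start had a STAT6-type site 119 bases upstream, and the later start had interferon-gamma activated sites 219 and 152 bases upstream. Of the promoters not printed, that of another Il18r1 start, between these, held the same STAT6-type site, 188 bases upstream. Il18rap held a STAT6-type site 167 bases and Il12rb2 an interferon-gamma activated site 123 bases before the start. Among all 32851 promoter windows of this length, 7.02% held the interferon-gamma activated site, 5.85% the STAT6-type site and 3.33% the T-box site.

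The 6 libraries held between 798555 and 1373218 reads in peaks, recovered as whole reads from the deposited values. The values are CPM, read counts scaled so that the listed peaks of each library sum to 1000000. The 79 peaks of the Th1 genes held 1751 reads in all, with 10 to 140 per peak over the 6 libraries and a median of 15. Counting error therefore limits every value below. Peaks within 999 bases of a start site took 27.6% to 36.4% of the reads of a library, most in KO Tfh21 and least in WT Tfh4. The 6 peaks of Stat6, the targeted gene, summed to 54.9 CPM in KO and 42.2 CPM in WT Tfh4, to 63.9 CPM in KO and 54.3 CPM in WT Tfh214, and to 54.2 CPM in KO and 45.4 CPM in WT Tfh21. The deleted part of Stat6 was not given, so these peaks do not check the labels. Peaks were listed for all 12 markers of T helper and follicular cells, for 5 of 7 of B cells (none for Cd79a or Ms4a1), for 5 of 6 of NK cells (none for Ncr1), for 1 of 2 of CD8 T cells (none for Cd8a) and for all 5 of myeloid cells.

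Differences between libraries are given as ratios of CPM with exact binomial 95% intervals, which cover counting error only and describe these libraries, not the conditions. A test across all genes used limma on log2(CPM + 1), with genotype and population as additive terms, over the 10825 genes with a mean of at least 20 reads. A gene was called at an adjusted p under 0.05. Of the 9 genes with a peak, 6 entered that test, while Ifng, Cxcr3 and Eomes had too few reads. None of the 6 was called in any comparison. The share of all tested genes called was 0.0554% for KO over WT and 0% for each pair of populations. At an unadjusted p under 0.05, the same model listed 1202 genes for KO over WT, 552 for Tfh214 over Tfh21, 1377 for Tfh4 over Tfh21 and 1093 for Tfh4 over Tfh214. The comparisons of Tfh4 and of Tfh214 with Tfh21 share the Tfh21 libraries. Median-of-ratios scaling, which sets the median gene equal between libraries, moved the median log2 difference of all genes from -0.115 to -0.008 for Tfh4 over Tfh21. Without replicates, the spread came from 2 residual degrees of freedom and from genes of like level.

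Per kilobase of peak, the 9 genes lay within a narrow range. Hopx had the highest level, 10.8 ± 2.0 CPM per kb (mean and SD over the 6 libraries), followed by Il18r1 with 9.69 ± 2.91 and Il12rb1 with 9.17 ± 1.84. Ifng had 8.21 ± 2.44 CPM per kb, Tbx21 7.60 ± 2.01, Il12rb2 7.41 ± 0.85 and Cxcr3 7.18 ± 1.04. Eomes had 5.60 ± 2.41 and Il18rap 5.28 ± 1.2 CPM per kb, the lowest. Neighbours in this order differed by less than their spread. Start-site peaks took 27.9% of the reads of the Th1 genes, against 48.0% of the reads of all peaks with a symbol. Only Hopx, Cxcr3 and Eomes had most of their reads at start sites.

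**Figure D1:**
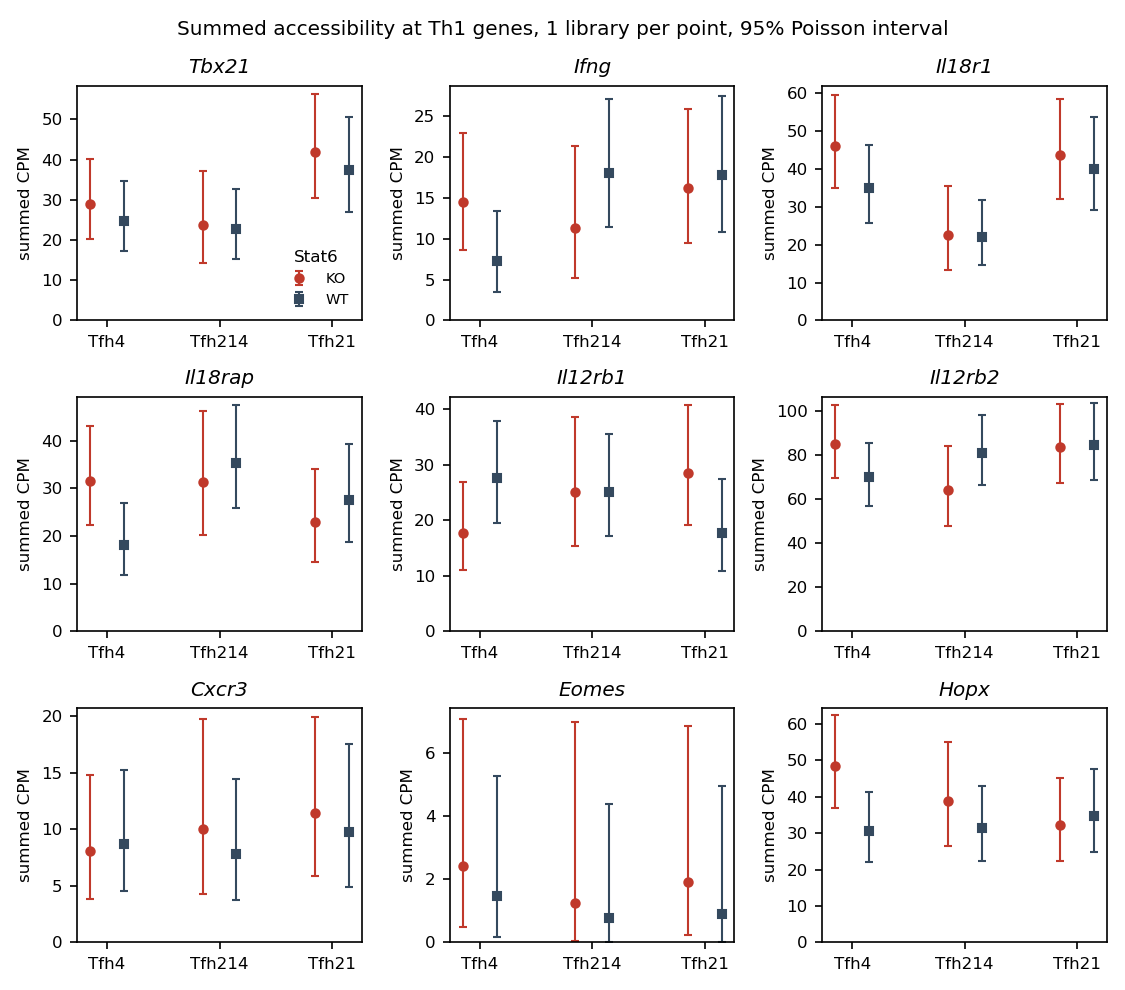
Summed CPM of all peaks of each gene (vertical axes start at 0 and differ between panels) in Tfh4, Tfh214 and Tfh21 cells, with circles for Stat6 KO and squares for WT. Each point is 1 library, and bars are exact 95% Poisson intervals of its reads. Tbx21 is lower in both Tfh4 and both Tfh214 libraries than in both Tfh21 libraries, and Il18r1 is lowest in the 2 Tfh214 libraries.

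Tbx21, which encodes the master regulator of Th1 cells, was less accessible in Tfh214 and Tfh4 than in Tfh21 libraries. The lower reads lay at peaks within the gene body, in Tfh214 at only some of them, and not at the start site of Tbx21. Of its 9 peaks, 4 had a lower and 5 a higher CPM in Tfh214 than in Tfh21. For Tfh4 over Tfh21, 7 were lower and 2 higher. Its 9 peaks summed to 29.1 CPM in KO and 24.8 CPM in WT Tfh4, to 23.8 CPM in KO and 22.8 CPM in WT Tfh214, and to 41.9 CPM in KO and 37.4 CPM in WT Tfh21. Both Tfh21 libraries lay above all 4 others. Over all genes, both Tfh4 libraries lay below both Tfh21 libraries for 24.8%, and both Tfh214 libraries did for 16.9%. The ratio of Tfh214 to Tfh21 was 0.586 (0.403 to 0.844) with genotypes pooled, 0.568 (0.313 to 0.994) in KO and 0.610 (0.366 to 1.002) in WT cells. The ratio of Tfh4 to Tfh21 was 0.677 (0.487 to 0.940), 0.694 (0.434 to 1.10) in KO and 0.662 (0.408 to 1.07) in WT cells. With median-of-ratios scaling, the interval of Tfh4 over Tfh21 reached 1 (0.731, 0.525 to 1.01), and it also reached 1 without WT Tfh4 (0.735, 0.483 to 1.10) or without KO Tfh21 (0.716, 0.482 to 1.08). Of the 8 Th1 genes with at least 20 reads, 2 had an interval below 1 for Tfh214 over Tfh21, where 3.24% of all genes did, and 1 for Tfh4 over Tfh21, where 7.82% did. In the limma test the log2 difference of Tbx21 was -0.74 ± 0.24 (SE) for Tfh214 over Tfh21 and -0.54 ± 0.24 for Tfh4 over Tfh21, with adjusted p of 0.877 and 0.350. In bulk cells, fewer cells with an open site and a less open site in every cell cannot be told apart.

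The 2 start-site peaks of Tbx21 summed to 8.88 CPM in KO and 14.6 CPM in WT Tfh4, to 11.3 CPM in KO and 8.65 CPM in WT Tfh214, and to 7.61 CPM in KO and 7.13 CPM in WT Tfh21. Both Tfh21 libraries were the lowest at the start site. Start-site sums of all genes lay so for 4.09% against Tfh4 and 9.28% against Tfh214. The ratios to Tfh21 were 1.61 (0.856 to 3.16) for Tfh4 and 1.31 (0.646 to 2.71) for Tfh214, and both intervals held 1. The 7 other peaks summed to 20.2 CPM in KO and 10.2 CPM in WT Tfh4, to 12.5 CPM in KO and 14.2 CPM in WT Tfh214, and to 34.2 CPM in KO and 30.3 CPM in WT Tfh21. Here both Tfh21 libraries were the highest, as for 11.5% of all genes against Tfh4 and 16.1% against Tfh214, with ratios to Tfh21 of 0.464 (0.305 to 0.696) for Tfh4 and 0.420 (0.261 to 0.660) for Tfh214. Intervals below 1 for such sums were found for 3% and 3.56% of all genes. With median-of-ratios scaling the start-site ratio of Tfh4 to Tfh21 was 1.97 (1.04 to 3.85), and the other peaks stayed below 1 (0.565, 0.372 to 0.848). The direction of the Tbx21 difference thus depends on which peaks are summed.

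The start-site share of the Tbx21 reads gives the same contrast within each library. It was 30.6% (exact 95% interval 16.3 to 48.1) in KO and 58.8% (40.7 to 75.3) in WT Tfh4, and 47.4% (24.4 to 71.1) in KO and 37.9% (20.7 to 57.7) in WT Tfh214. In Tfh21 it was 18.2% (8.19 to 32.7) in KO and 19.0% (8.60 to 34.1) in WT cells. The point values of both Tfh21 libraries were the lowest, but their intervals overlapped those of every other library except WT Tfh4. How many of all genes have shares in this order was not counted. The odds of a read lying outside the start site were 0.290 (0.131 to 0.624) in Tfh4 relative to Tfh21 and 0.323 (0.135 to 0.760) in Tfh214 relative to Tfh21. For the median gene these odds were 1.27 and 1.02. An interval below 1 was found for 0.376% of genes for Tfh4 over Tfh21 and for 1.46% for Tfh214 over Tfh21. These odds were computed after the peak values had been seen.

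**Figure D2:**
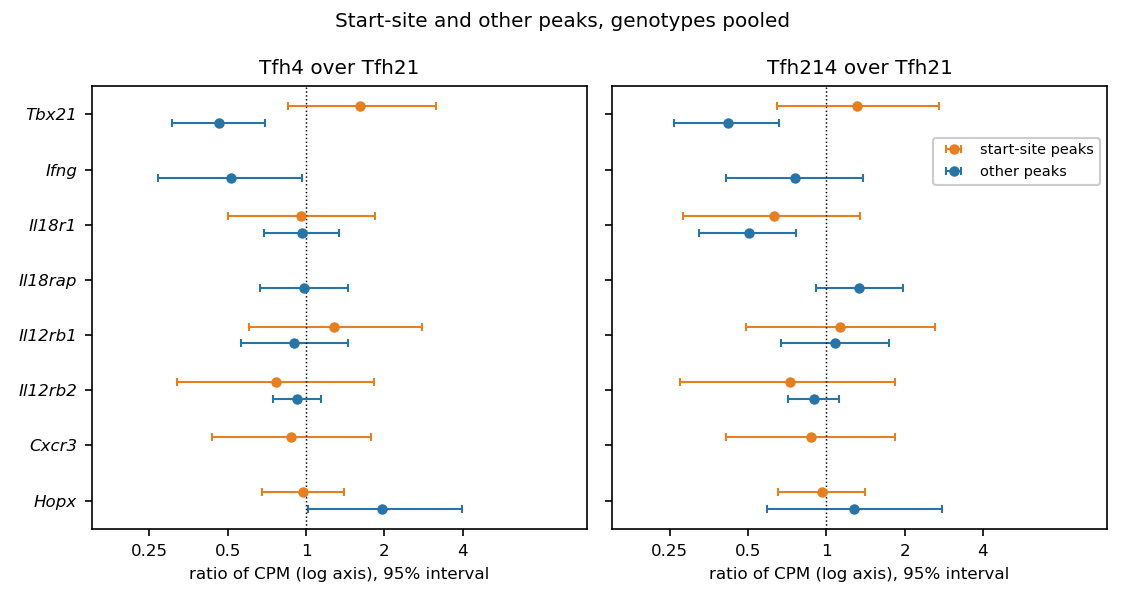
Ratio of CPM (log axis) of Tfh4 to Tfh21 (left) and Tfh214 to Tfh21 (right), KO and WT pooled, for start-site peaks (orange) and all other peaks (blue) of each gene, with exact binomial 95% intervals. Sums with under 20 reads in both sides together are not drawn, and at Tbx21 the 2 kinds of peak lie on opposite sides of 1.

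Peak by peak, the strongest peak of Tbx21 covered the start site (mm9, chr11:96976294-96976763) with 51 reads. It had 7.27 CPM in KO and 10.9 CPM in WT Tfh4, 7.51 CPM in KO and 6.29 CPM in WT Tfh214, and 5.71 CPM in KO and 6.24 CPM in WT Tfh21. Both Tfh21 libraries were the lowest there, WT Tfh21 by a narrow margin, as at 10.9% of all peaks against Tfh4 and 11.7% against Tfh214. The intron peak at chr11:96974055-96974472, 2174 bases downstream of the start, held 3 reads in KO and 5 in WT Tfh4, 3 in KO and 3 in WT Tfh214, and 9 in KO and 12 in WT Tfh21. Both Tfh21 libraries were the highest, as at 28.5% of all peaks against Tfh4 and 17.9% against Tfh214. Its ratio to Tfh21 was 0.317 (0.122 to 0.745) for Tfh4 and 0.300 (0.0991 to 0.768) for Tfh214. A wide intron peak farther in, at chr11:96963602-96964627, held 10 reads in KO and 5 in WT Tfh4, 1 in each Tfh214 library, and 13 in KO and 8 in WT Tfh21. With 2 reads in Tfh214 against 21 in Tfh21, its ratio was 0.100 (0.0114 to 0.409). Both Tfh214 libraries were the lowest at this peak, as at 17.9% of all peaks against Tfh21 and 13.6% against Tfh4. The Tfh4 libraries overlapped Tfh21. Of the Th1 peaks with at least 20 reads, 4 of 15 had an interval below 1 for Tfh214 over Tfh21 (2.06% of all peaks) and 1 of 18 for Tfh4 over Tfh21 (7.3%). This peak was also the only one of the 26 Th1 peaks with at least 20 reads whose KO to WT interval lay above 1 (2.09, 1.04 to 4.37), and it no longer did so with median-of-ratios scaling (1.84, 0.915 to 3.85); 4.04% of all such peaks did.

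The other 6 Tbx21 peaks held 10 to 17 reads each. The second start-site peak, 117 bases upstream, held 2 and 5 reads in KO and WT Tfh4, 3 and 3 in Tfh214, and 2 and 1 in Tfh21. The exon peak at 352 bases held 3 and 0 reads in KO and WT Tfh4, 1 and 5 in Tfh214, and 5 and 1 in Tfh21. The intron peak at 9168 bases had 1 read in each Tfh4 library, 0 in each Tfh214 library, and 3 in KO and 6 in WT Tfh21. Again the Tfh21 libraries were highest there, as at 28.5% of peaks with at least 20 reads against Tfh4 and 17.9% against Tfh214. The intron peaks at 5032 and 11049 bases held 0 to 5 reads in every library. At 5032 bases the populations overlapped, and at 11049 bases both Tfh4 libraries, with 1 read each, lay below both Tfh214 libraries, with 2 reads in KO and 3 in WT. Of peaks with at least 20 reads, 26% had both Tfh4 libraries below both Tfh214 libraries. The exon peak at 13353 bases held 2 reads in each Tfh4 library, 0 in KO and 2 in WT Tfh214, and 2 in KO and 3 in WT Tfh21.

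**Figure D3:**
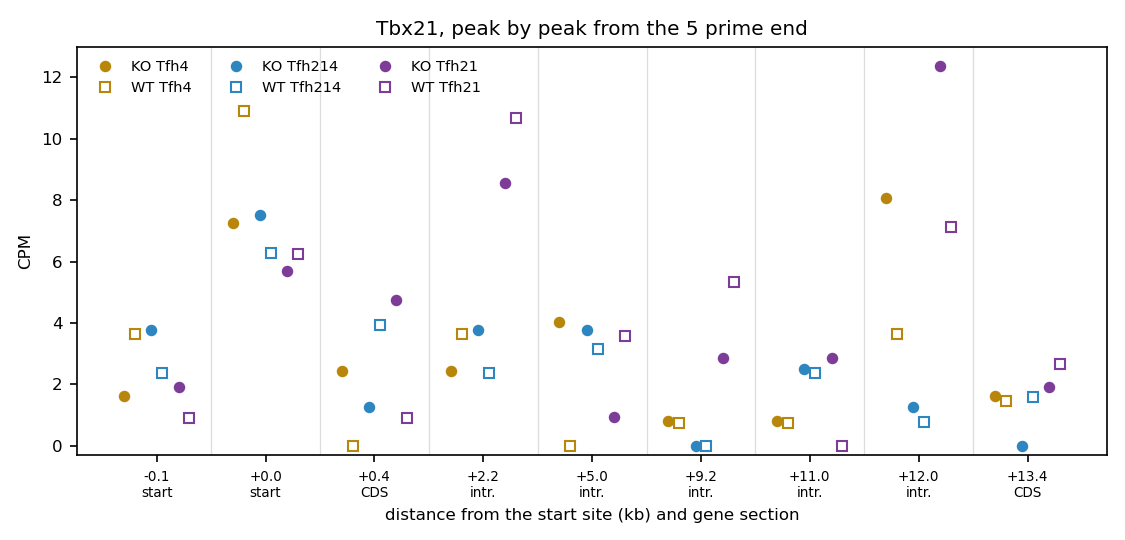
CPM of each Tbx21 peak in each library (filled circles KO, open squares WT; colours are the populations), ordered from the 5 prime end, with the distance from the start site in kb and the gene section under each. At the main start-site peak both Tfh21 libraries are the lowest (5.71 CPM in KO and 6.24 CPM in WT), whereas at the intron peak 2174 bases in they are the highest (8.56 CPM in KO and 10.7 CPM in WT).

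Ifng, the gene of interferon-gamma, had 5 peaks and 97 reads. They summed to 14.5 CPM in KO and 7.28 CPM in WT Tfh4, to 11.3 CPM in KO and 18.1 CPM in WT Tfh214, and to 16.2 CPM in KO and 17.8 CPM in WT Tfh21. WT Tfh4 was lowest. Both Tfh4 libraries lay below both Tfh21 libraries, as for 24.8% of all genes. The Tfh214 libraries lay on either side of the Tfh21 libraries. The ratio of KO to WT was 1.01 (0.663 to 1.54), that of Tfh4 to Tfh21 0.630 (0.371 to 1.06) and that of Tfh214 to Tfh21 0.908 (0.548 to 1.498). Without KO Tfh4, which leaves WT Tfh4 alone, the Tfh4 to Tfh21 interval lay below 1 (0.428, 0.190 to 0.878). With all libraries, no pooled interval at Ifng excluded 1. In WT cells alone the ratio of Tfh4 to Tfh214 was 0.403 (0.171 to 0.88), where 5.19% of all genes had an interval below 1.

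The strongest Ifng peak, an exon peak at chr10:117879825-117880259, held 3 reads in KO and 1 in WT Tfh4, 5 in KO and 7 in WT Tfh214, and 7 in KO and 8 in WT Tfh21. In CPM both Tfh4 libraries were the lowest, with 2.42 in KO and 0.728 in WT, followed by Tfh214 with 6.26 in KO and 5.50 in WT, and by Tfh21 with 6.66 in KO and 7.13 in WT. Of peaks with at least 20 reads, 28.5% had both Tfh4 libraries below both Tfh21 libraries and 26% below both Tfh214 libraries. Both Tfh214 libraries lay below both Tfh21 libraries at 17.9%. The start-site peak at chr10:117877959-117878284 held 8 reads in KO and 2 in WT Tfh4, 3 in KO and 8 in WT Tfh214, and 2 in KO and 6 in WT Tfh21. Genotypes and populations overlapped at the start site. The exon peak at 1321 bases held 1 and 2 reads in KO and WT Tfh4, 0 and 1 in Tfh214, and 5 in each Tfh21 library, so Tfh21 was highest. Peaks with at least 20 reads had both Tfh21 libraries highest at 28.5% against Tfh4 and 17.9% against Tfh214. The intron peaks at 1007 and 3071 bases held 0 to 5 reads in every library.

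Intergenic peaks nearest to the start site of a Th1 gene carry no symbol and are described apart, since no peak was linked to a gene by more than distance. Those of Ifng and Tbx21 are given here in detail. Of 27 such peaks around Ifng, the strongest lay 21.9 kb upstream (chr10:117855908-117856580) with 227 reads, more than all 5 peaks within the gene together. It had 33.9 CPM in KO and 23.3 CPM in WT Tfh4, 33.8 CPM in KO and 31.4 CPM in WT Tfh214, and 41.9 CPM in KO and 37.4 CPM in WT Tfh21. Both Tfh21 libraries lay above the other 4, as at 28.5% of all peaks against Tfh4 and 17.9% against Tfh214. The log2 difference in limma across peaks was -0.48 ± 0.20 (SE, adjusted p = 0.130) for Tfh4 over Tfh21 and -0.27 ± 0.20 (adjusted p = 0.9997) for Tfh214 over Tfh21. With median-of-ratios scaling the first was -0.20, and the median tested peak had shifted by -0.27 in CPM. Of 8986 peaks tested, 1.31% were called for Tfh4 over Tfh21 and 0% for Tfh214 over Tfh21. All 27 intergenic peaks of Ifng together gave a Tfh4 to Tfh21 ratio of 0.790 (0.671 to 0.929). Under median-of-ratios scaling that ratio was 0.963, and its interval of 0.818 to 1.13 held 1. The Tfh214 to Tfh21 ratio of this sum was 0.841 (0.7095 to 0.997). Its interval, too, held 1 after such scaling (0.740 to 1.04).

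Around Tbx21, 7 intergenic peaks lay 6.2 to 32.2 kb from the start site. The strongest, 11.9 kb upstream (chr11:96988313-96988827), held 93 reads. It had 9.69 CPM in KO and 10.9 CPM in WT Tfh4, 8.77 CPM in KO and 13.4 CPM in WT Tfh214, and 23.8 CPM in KO and 15.1 CPM in WT Tfh21. Both Tfh21 libraries were highest at this peak, as at 28.5% of all peaks against Tfh4 and 17.9% against Tfh214. Its ratios to Tfh21 were 0.535 (0.317 to 0.888) for Tfh4 and 0.600 (0.348 to 1.01) for Tfh214. With median-of-ratios scaling the Tfh4 interval held 1 (0.652, 0.387 to 1.08). All 7 peaks together had 19.4 CPM in KO and 29.9 CPM in WT Tfh4, 21.3 CPM in KO and 29.9 CPM in WT Tfh214, and 44.7 CPM in KO and 27.6 CPM in WT Tfh21. WT Tfh21 was below both other WT libraries there, so the populations overlapped. The ratio of this sum was 0.694 (0.491 to 0.977) for Tfh4 over Tfh21, and 0.846 (0.599 to 1.19) with median-of-ratios scaling. This peak and the upstream Ifng peak were singled out after their values had been seen.

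**Figure D4:**
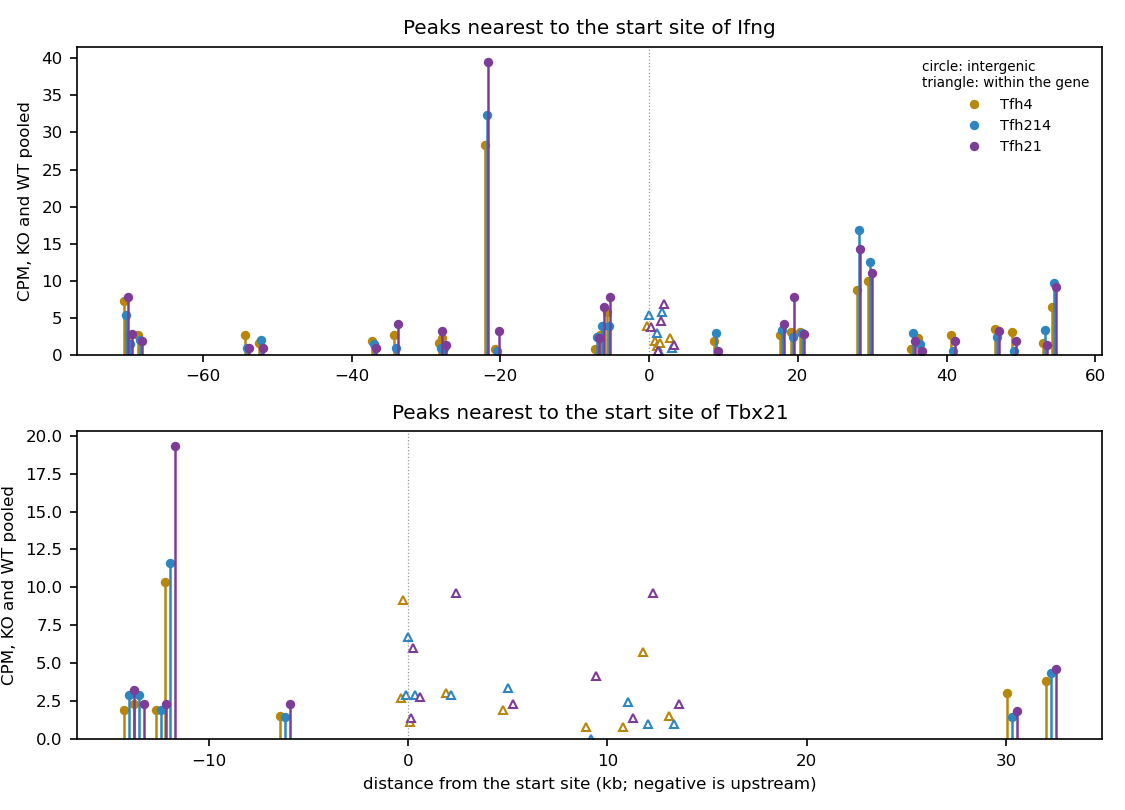
CPM with KO and WT pooled (vertical axis) against the distance from the start site in kb for peaks around Ifng (top) and Tbx21 (bottom). Circles are intergenic peaks, open triangles peaks within the gene, colours the populations, and points of 1 peak are shifted by 0.25 kb for clarity. The upstream peaks at 21.9 kb from Ifng and 11.9 kb from Tbx21 are highest in Tfh21.

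Il18r1 and Il18rap encode the chains of the interleukin-18 receptor and lie side by side on chromosome 1. Il18r1, the ligand-binding chain, was least accessible in Tfh214, and Il18rap, the accessory chain, did not share this. The 10 peaks of Il18r1 summed to 46.0 CPM in KO and 35.0 CPM in WT Tfh4, to 22.5 CPM in KO and 22.0 CPM in WT Tfh214, and to 43.8 CPM in KO and 40.1 CPM in WT Tfh21. Both Tfh214 libraries lay below the other 4, where 16.9% of all genes had both below Tfh21 and 15.7% had both below Tfh4. The ratio of Tfh214 to Tfh21 was 0.531 (0.364 to 0.765), 0.515 (0.281 to 0.906) in KO and 0.549 (0.330 to 0.8999) in WT cells. The ratio of Tfh4 to Tfh214 was 1.81 (1.27 to 2.62), 2.04 (1.18 to 3.69) in KO and 1.59 (0.976 to 2.63) in WT cells. Il18r1 was the only one of 8 genes with an interval above 1 for Tfh4 over Tfh214, where 4.88% of all genes had one. These 2 intervals excluded 1 under median-of-ratios scaling and without each library in turn. In limma the log2 difference was -0.88 ± 0.22 (SE, adjusted p = 0.867) for Tfh214 over Tfh21 and 0.82 ± 0.22 (adjusted p = 0.333) for Tfh4 over Tfh214.

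At Il18r1 the difference was spread over the gene. All 10 peaks had a lower CPM in Tfh214 than in Tfh21, and 8 of 10 had a higher CPM in Tfh4 than in Tfh214. Most of these directions rest on few reads. In each comparison 3 peaks held at least 20 reads, and 1 of them had an interval below 1 for Tfh214 over Tfh21. For Tfh4 over Tfh214, 0 had an interval above 1. The strongest, an intron peak at chr1:40536353-40536604, held 9 reads in KO and 8 in WT Tfh4, 2 in KO and 4 in WT Tfh214, and 11 in KO and 6 in WT Tfh21, and its Tfh214 to Tfh21 ratio was 0.371 (0.120 to 0.985; with median-of-ratios scaling 0.386, 0.125 to 1.03). The strongest start-site peak, at chr1:40522407-40522806, held 3 and 8 reads in KO and WT Tfh4, 4 and 5 in Tfh214, and 4 and 7 in Tfh21. Populations overlapped there, and the start-site ratio of Tfh214 to Tfh21 was 0.630 (0.281 to 1.35), against 0.503 (0.324 to 0.767) for the other 8 peaks.

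The 11 peaks of Il18rap summed to 31.5 CPM in KO and 18.2 CPM in WT Tfh4, to 31.3 CPM in KO and 35.4 CPM in WT Tfh214, and to 22.8 CPM in KO and 27.6 CPM in WT Tfh21. Tfh214 was not low here, and its ratio to Tfh21 was 1.34 (0.925 to 1.94). The strongest peak, an exon peak at chr1:40599139-40600123, had 6.46 CPM in KO and 4.37 CPM in WT Tfh4, 11.3 CPM in KO and 11.0 CPM in WT Tfh214, and 6.66 CPM in KO and 7.13 CPM in WT Tfh21. Both Tfh214 libraries were highest, with a Tfh4 to Tfh214 ratio of 0.482 (0.230 to 0.978; with median-of-ratios scaling 0.564, 0.268 to 1.14), 1 of 14 Th1 peaks below 1 where 6.07% of all peaks were. The start-site peak at chr1:40571823-40572158 held 1 to 3 reads in each library.

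**Figure D5:**
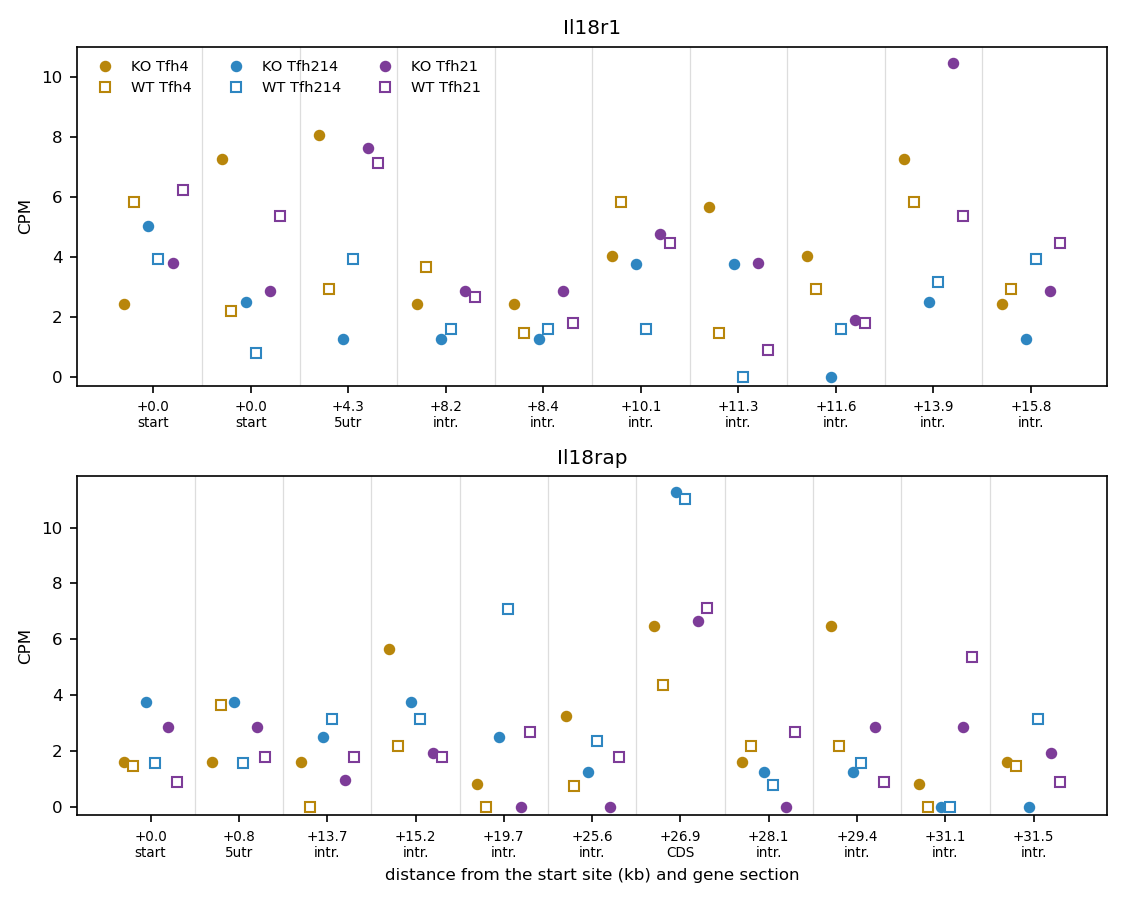
CPM of each peak of Il18r1 (top) and Il18rap (bottom) in each library (filled circles KO, open squares WT; colours are the populations), from the 5 prime end, with the distance from the start site in kb and the gene section. Pooled over genotypes, Tfh214 lies below Tfh21 at all 10 Il18r1 peaks, while at the exon peak of Il18rap at 26.9 kb both Tfh214 libraries are highest.

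The interleukin-12 receptor genes showed no difference beyond counting error in their sums. Il12rb2, the chain that T-bet and interferon-gamma signalling raise in Th1 cells, had the most reads, 538 over 25 peaks. It summed to 84.8 CPM in KO and 69.9 CPM in WT Tfh4, to 63.9 CPM in KO and 81.0 CPM in WT Tfh214, and to 83.7 CPM in KO and 84.6 CPM in WT Tfh21. The lowest library was KO Tfh214, and both Tfh214 libraries lay below both Tfh21 libraries, as for 16.9% of all genes. The Tfh4 libraries overlapped both. The ratios were 1.01 (0.851 to 1.2) for KO to WT, 0.884 (0.709 to 1.10) for Tfh214 to Tfh21 and 0.914 (0.744 to 1.12) for Tfh4 to Tfh21. Its strongest peak, in an intron at chr6:67297984-67298497, had 19.4 CPM in KO and 10.9 CPM in WT Tfh4, 10.0 CPM in KO and 14.9 CPM in WT Tfh214, and 19.98 CPM in KO and 24.1 CPM in WT Tfh21. Both Tfh21 libraries lay above the others, with a Tfh214 to Tfh21 ratio of 0.591 (0.354 to 0.966; with median-of-ratios scaling 0.616, 0.369 to 1.01). Its top start-site peak at chr6:67325841-67326210 held 2 to 4 reads in every library.

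Il12rb1, the chain shared with the interleukin-23 receptor, had 7 peaks that summed to 17.8 CPM in KO and 27.7 CPM in WT Tfh4, to 25.05 CPM in KO and 25.2 CPM in WT Tfh214, and to 28.5 CPM in KO and 17.8 CPM in WT Tfh21. KO Tfh4 and WT Tfh21 were the lowest, and no pooled interval excluded 1. Its strongest peak was an intron peak 590 bases downstream of the start with 51 reads, 7 and 8 in KO and WT Tfh4, 5 and 12 in Tfh214, and 10 and 9 in Tfh21. The start-site peak at chr8:73332262-73332524 held 3 to 7 reads in each library.

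Cxcr3, a chemokine receptor that T-bet induces, had 3 peaks that summed to 8.07 CPM in KO and 8.74 CPM in WT Tfh4, to 10.0 CPM in KO and 7.86 CPM in WT Tfh214, and to 11.4 CPM in KO and 9.80 CPM in WT Tfh21. Its start-site peak at chrX:98929198-98929675 held 37 of its 63 reads, and the libraries overlapped. Eomes, the T-box factor related to T-bet, had a single start-site peak (chr9:118386755-118387014) with 1 to 3 reads in each library, too few for a comparison.

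Hopx, a homeodomain-only protein found in Th1 effector cells, had 8 peaks. They summed to 48.4 CPM in KO and 30.6 CPM in WT Tfh4, to 38.8 CPM in KO and 31.5 CPM in WT Tfh214, and to 32.3 CPM in KO and 34.7 CPM in WT Tfh21. KO Tfh4 was the highest library, and the pooled KO to WT ratio was 1.26 (0.974 to 1.63). The start-site peaks alone gave a KO to WT ratio of 1.39 (1.03 to 1.88), which with median-of-ratios scaling was 1.23 and no longer excluded 1; 8.22% of all genes had a start-site interval above 1. Its strongest peak, at a start site (chr5:77523774-77524440), was the only Th1 peak with enough reads for the peak test. It had 27 and 20 reads in KO and WT Tfh4, 20 and 26 in Tfh214, and 22 and 25 in Tfh21. Its log2 difference was 0.25 ± 0.22 (SE, limma adjusted p = 0.501) for KO over WT, where 0.857% of tested peaks were called. A weak peak in a 5 prime UTR section, 629 bases downstream of another start, held 7 reads in each Tfh4 library, 0 in KO and 2 in WT Tfh214, and 0 in KO and 1 in WT Tfh21. That peak was singled out after its values had been seen.

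Between genotypes, 45 of the 79 peaks had a higher CPM in KO and 34 a lower one. None of the 8 genes with at least 20 reads had a pooled KO to WT interval that excluded 1, where 11.1% of all genes did. In limma the log2 differences for KO over WT ran from -0.03 ± 0.13 (SE) for Il12rb2 to 0.28 ± 0.18 for Hopx, with adjusted p of 0.965 and 0.565, while the median gene stood at 0.071. For Tbx21 the ratio was 1.15 (0.865 to 1.53) and for Il18r1 1.22 (0.940 to 1.58). Smaller differences than these intervals allow were not detectable at this depth. The Il18r1 interval lay above 1 without WT Tfh21 (1.36, 1.01 to 1.84) and without KO Tfh214 (1.40, 1.07 to 1.84). With 1 library per genotype and population, genotype cannot be told apart from the mice used or from the library.

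The 3 genes whose log2 level ran most like that of Tbx21 over the 6 libraries were Zmynd11 (Pearson r = 0.979), Snrpa (0.978) and Dusp2 (0.974). Of 10824 genes compared, 19 had an r above 0.95. Among the Th1 genes Il18r1 ranked 497 with an r of 0.761, and Il18rap had an r of -0.284. These are descriptions over libraries that share their scaling.

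Other genes of Th1 induction and interferon-gamma signalling were counted from a list of 16, all with a peak, of which 11 entered the limma test and 0 were called in any comparison. Their median log2 difference was 0.097 for KO over WT, against 0.071 for all genes tested. It was -0.127 for Tfh214 over Tfh21, against -0.028 for all genes, and -0.144 for Tfh4 over Tfh21, against -0.115. The 3 with most reads were Jak1, Stat4 and Jak2, which carry cytokine signals. Stat4, the interleukin-12 signal transducer, had 124 CPM in KO and 165 CPM in WT Tfh4, 148 CPM in KO and 118 CPM in WT Tfh214, and 181 CPM in KO and 139 CPM in WT Tfh21. Its Tfh214 to Tfh21 interval lay below 1 (0.813, 0.691 to 0.957), as did those of Tyk2 (0.693, 0.494 to 0.965) and Bhlhe40 (0.697, 0.518 to 0.934), 3 of 14 genes with at least 20 reads, where 3.24% of all genes had one. Jak1 had a KO to WT ratio of 1.17 (1.06 to 1.297) and Jak2 of 1.001 (0.867 to 1.16). Tyk2 and Bhlhe40 were named after their values had been seen.

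Of 18 effector genes found with the Th1 program, 16 had a peak, 6 were tested by limma and 0 were called. Their median log2 difference was -0.007 for KO over WT, -0.028 for Tfh214 over Tfh21 and -0.189 for Tfh4 over Tfh21. The 3 with most reads were Cx3cr1, Il2rb and Id2. Cx3cr1, a chemokine receptor, had a Tfh4 to Tfh214 ratio of 0.732 (0.566 to 0.945). Id2, an inhibitor of E proteins, had a Tfh4 to Tfh21 ratio of 0.723 (0.542 to 0.964; with median-of-ratios scaling 0.780, 0.584 to 1.04). Il2rb, a chain of the interleukin-2 receptor, had no pooled interval that excluded 1. Havcr2, named after its values had been seen, encodes TIM-3 and had 24.2 CPM in KO and 26.9 CPM in WT Tfh4, 21.3 CPM in KO and 8.65 CPM in WT Tfh214, and 19.0 CPM in KO and 6.24 CPM in WT Tfh21. Its Tfh4 to Tfh21 ratio was 2.06 (1.303 to 3.36). Both Tfh4 libraries were the highest, opposite in direction to Tbx21. Among all genes, both Tfh4 libraries lay above Tfh21 for 15.9% and above Tfh214 for 15.7%. For Tfh4 over Tfh21, 1 of 11 effector genes with at least 20 reads had an interval above 1 and 1 below. Of all genes, 6.16% and 7.82% did. For Tfh4 over Tfh214, 1 of 10 lay above 1 and 2 below, where 4.88% and 5.35% of all genes did.

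Markers of other cell types are given beside these results. The 12 T helper and follicular markers summed to 501 CPM in KO and 521 CPM in WT Tfh4, to 641 CPM in KO and 565 CPM in WT Tfh214, and to 683 CPM in KO and 541 CPM in WT Tfh21. For Tfh4 over Tfh21, 4 of these 12 had an interval below 1 (Cd3d, Cxcr5, Pdcd1 and Il21), where 7.82% of all genes did. With median-of-ratios scaling the intervals of Pdcd1 (0.846, 0.672 to 1.07) and Il21 (0.689, 0.473 to 1.001) reached 1. The B cell list summed to 101 to 153 CPM over the 6 libraries, with Pax5 and Ebf1 holding most of it. Ebf1 was higher in Tfh4 (1.95, 1.34 to 2.88) and in Tfh214 (1.97, 1.33 to 2.96) than in Tfh21, and Fcer2a was higher in Tfh4 than in Tfh21 (1.77, 1.06 to 3.05). These 3 intervals also lay above 1 with median-of-ratios scaling, and they move with the Tbx21 contrast in the opposite direction. Among all genes, 6.16% had an interval above 1 for Tfh4 over Tfh21 and 3.09% for Tfh214 over Tfh21. The NK cell list summed to 24.4 to 32.3 CPM and the myeloid list to 47.6 to 62.6 CPM. Cd8b1 had 12.1 CPM in KO and 13.1 CPM in WT Tfh4, 6.26 CPM in KO and 7.86 CPM in WT Tfh214, and 3.81 CPM in KO and 8.02 CPM in WT Tfh21, with no peak at Cd8a. The part of other cell types, and of the share of reads at start sites, in the Tbx21 and Il18r1 differences was not tested.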

How the data were processed

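Peaks and their CPM were deposited by the authors as 1 common table in mm9. The submitters' processing notes list Bowtie 1.3.0, MACS2 2.0 and HOMER but not what each did. How peaks were called, whether duplicates were removed and whether cut positions were shifted is not given in the sources used here. Gene symbols came from the annotation field that held them. CPM were turned into whole reads by the value of 1 read: 99.9989% or more of the values of each library came out within 0.02 of a whole read. With 1 library per group, limma 3.58.1 (R 4.3.3) was fitted to log2(CPM + 1) with variance trend over genes (summed peaks) or single peaks averaging 20 or more reads per library, with Benjamini-Hochberg adjustment. The trend and this minimum follow earlier work on these data, which had seen calls with the trend and none without it. edgeR 4.0.16 and DESeq2 1.42.0 on recovered reads were alternatives. The limma and edgeR scripts were tested on simulated data. Intervals cover counting error only. Promoter motifs were searched in the 250 bases upstream of the start, not in the 50 after it. The genes, lists and tests were chosen with earlier results of these data known. The genes named are all 10 Th1 genes, each gene's strongest and top start-site peak, every peak of Tbx21 and Ifng, the 3 genes of each list with most reads and the 3 most like Tbx21, and others are said to be named after their values had been seen.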

Additional observations from a re-analysis of the deposited data

Results flagged for a closer look

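The ratios below lie above 1 in 1 group of libraries and below 1 in another under the same contrast. Of 31 contrasts of the Th1 gene sums that had at least 20 reads in each of 2 or more groups, 19 did so, with 43 ratios in them. With 1 library per genotype and population, no interaction could be fitted, so these differences were not tested. Ratios that lie near 1 on both sides are included, and intervals in brackets are exact 95% intervals of counting error.

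At Ifng, KO over WT gave 2 (0.873 to 4.84) in Tfh4, 0.623 (0.254 to 1.4) in Tfh214 and 0.908 (0.447 to 1.82) in Tfh21. Tfh214 relative to Tfh21 stood at 0.697 (0.274 to 1.65) in KO and 1.01 (0.533 to 1.95) in WT. The ratio of Tfh4 over Tfh214 was 1.29 (0.55 to 3.26) in KO and 0.403 (0.171 to 0.88) in WT.

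At Il18r1, Tfh4 over Tfh21 gave 1.05 (0.701 to 1.59) in KO and 0.872 (0.569 to 1.34) in WT.

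At Il18rap, KO relative to WT stood at 1.73 (1.02 to 2.98) in Tfh4, 0.885 (0.52 to 1.47) in Tfh214 and 0.827 (0.464 to 1.46) in Tfh21. The ratio of Tfh4 over Tfh21 was 1.38 (0.809 to 2.4) in KO and 0.659 (0.373 to 1.15) in WT. Tfh4 over Tfh214 gave 1.01 (0.594 to 1.73) in KO and 0.514 (0.302 to 0.857) in WT.

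At Il12rb1, KO relative to WT stood at 0.642 (0.362 to 1.11) in Tfh4, 0.995 (0.539 to 1.79) in Tfh214 and 1.6 (0.88 to 2.98) in Tfh21. The ratio of Tfh4 over Tfh21 was 0.622 (0.342 to 1.12) in KO and 1.55 (0.881 to 2.82) in WT. Tfh214 over Tfh21 gave 0.877 (0.472 to 1.6) in KO and 1.41 (0.783 to 2.61) in WT. Tfh4 relative to Tfh214 stood at 0.709 (0.369 to 1.37) in KO and 1.1 (0.669 to 1.82) in WT.

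At Il12rb2, the ratio of KO over WT was 1.21 (0.911 to 1.62) in Tfh4, 0.789 (0.552 to 1.11) in Tfh214 and 0.989 (0.732 to 1.34) in Tfh21. Tfh4 over Tfh21 gave 1.01 (0.755 to 1.36) in KO and 0.826 (0.616 to 1.11) in WT. Tfh4 relative to Tfh214 stood at 1.33 (0.941 to 1.89) in KO and 0.863 (0.647 to 1.15) in WT.

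At Cxcr3, the ratio of KO over WT was 0.924 (0.358 to 2.33) in Tfh4 and 1.17 (0.471 to 2.91) in Tfh21.

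At Hopx, KO over WT gave 1.58 (1.05 to 2.41) in Tfh4, 1.23 (0.747 to 2.02) in Tfh214 and 0.931 (0.57 to 1.51) in Tfh21. Tfh4 relative to Tfh21 stood at 1.5 (0.967 to 2.35) in KO and 0.88 (0.556 to 1.4) in WT. The ratio of Tfh214 over Tfh21 was 1.2 (0.713 to 2.01) in KO and 0.905 (0.568 to 1.45) in WT. Tfh4 over Tfh214 gave 1.25 (0.796 to 1.99) in KO and 0.972 (0.616 to 1.54) in WT.

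Of these intervals 4 excluded 1. For KO Tfh4 over WT Tfh4, where Il18rap and Hopx lay above 1, 4.36% of all genes had an interval above 1. For WT Tfh4 over WT Tfh214, where Ifng and Il18rap lay below 1, 5.19% of all genes had an interval below 1.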

How the results depend on the processing

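Counting error at 10 to 140 reads per Th1 peak limits every comparison, and the limma fits rest on 2 residual degrees of freedom. A fit that leaves out a library can leave 1 library in a population, which is then assumed to vary like the others. The cause of each change below was not tested.

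For KO over WT, 6 genes were called (1 higher, 5 lower), against 11 with no filter, 0 without the variance trend, 1 with DESeq2, 120 from each gene's strongest peak, 72 from start-site peaks and 3 from other peaks, and 1 to 85 without 1 library. For Tfh214 over Tfh21, 0 genes were called, and 0 to 8 without 1 library. For Tfh4 over Tfh21, 0 genes were called, against 1 with no filter, 1 with edgeR, 222 from strongest peaks, 222 from start-site peaks and 0 to 121 without 1 library. For Tfh4 over Tfh214, 0 were called, against 1 with no filter, 182 from strongest peaks, 156 from start-site peaks and 0 to 15 without 1 library. Over single peaks, 77 were called for KO over WT, against 2 with median-of-ratios scaling, 22 at a mean of at least 5 reads, 17 with no filter, 0 without the trend, 1 with edgeR, 0 with DESeq2, 2 with no population term and 2 to 287 without 1 library. For Tfh214 over Tfh21, 0 peaks were called, and 0 to 2 without 1 library. For Tfh4 over Tfh21, 118 were called, against 0 with median-of-ratios scaling, 19 at a mean of at least 5 reads, 8 with no filter, 0 without the trend, 0 with edgeR, 0 with DESeq2 and 0 to 633 without 1 library. For Tfh4 over Tfh214, 178 were called, against 0 with median-of-ratios scaling, 33 at a mean of at least 5 reads, 9 with no filter, 0 without the trend, 0 with edgeR, 0 with DESeq2 and 4 to 252 without 1 library.

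None of the 366 limma, edgeR and DESeq2 values of the Th1 genes under an alternative was called, the lowest adjusted p being 0.112, and 39 had the other sign. Of 32 pooled ratios of the Th1 genes, 4 had intervals that excluded 1, against 1 from start-site peaks alone (Hopx, KO over WT) and 4 to 7 without 1 library; the 7 came without KO Tfh4.

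Log2 differences that changed sign are given first as reported. For KO over WT, Il18rap had 0.11 and -0.22 to 0.29 without 1 library. Il12rb1 had 0.01, against -0.06 with median-of-ratios scaling, -0.092 with edgeR, -0.07 with DESeq2 and -0.31 to 0.32 without 1 library. Il12rb2 had -0.03 and -0.18 to 0.13 without 1 library. For Tfh214 over Tfh21, the ranges without 1 library were -0.33 to 0.63 for Il12rb1 (0.15), -0.46 to 0.01 for Il12rb2 (-0.22) and -0.23 to 0.34 for Hopx (0.06), and Hopx start-site peaks gave -0.027. For Tfh4 over Tfh21, median-of-ratios scaling, edgeR and DESeq2 gave 0.046, 0.053 and 0.052 for Il18r1 (-0.06), 0.04, 0.063 and 0.068 for Il18rap (-0.06), and 0.081, 0.10 and 0.086 for Il12rb1 (-0.02). The ranges without 1 library were -0.21 to 0.094 for Il18r1, -0.55 to 0.42 for Il18rap, -0.50 to 0.46 for Il12rb1, -0.35 to 0.10 for Il12rb2 (-0.13) and -0.09 to 0.48 for Hopx (0.20), and Hopx gave -0.26 from its strongest peak and -0.077 from start-site peaks. For Tfh4 over Tfh214, the ranges were -0.94 to 0.031 for Il18rap (-0.46), -0.64 to 0.30 for Il12rb1 (-0.17), -0.14 to 0.33 for Il12rb2 (0.10) and -0.14 to 0.41 for Hopx (0.14), and Hopx gave -0.33 from its strongest peak and -0.051 from start-site peaks. The Tbx21 ratio of Tfh214 to Tfh21 was 1.13 from the strongest peak and 1.31 from start-site peaks, and that of Tfh4 to Tfh21 was 1.54 and 1.61.

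The leave-one-library ratios and the odds of other against start-site peaks were chosen after the data were seen. The genotype fit already sets KO against WT within each population, and the labels give no replicate numbers for another pairing.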
